A study of Mustela putorius furo and Mus musculus with 4 samples.

Results

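The 40 genes described here make up the transcript set of DNA replication and S phase, the part of the cell cycle in which the genome is copied. They were chosen by name from their known roles with no measured value in the rule, although earlier results of these data were known by then. All 40 had a row among the 17170 genes of the mouse table. Of these, 38 had a row among the 22008 ferret genes, and NASP and SLBP were not analysed there. The genes fall into 7 roles, which are origin licensing and its control (2 genes), the replicative helicase (8), polymerases, primase, clamp and flap removal (8), nucleotide supply (3), chromatin assembly and maintenance (6), fork protection, checkpoint and repair (9), and G1/S transcription and its cyclin (4).

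The data were single-cell RNA-seq profiles of embryonic cortex, given as counts of unique molecular identifiers (UMIs, each standing for 1 captured RNA molecule). The mouse cells came from CD1 cortex at embryonic day 18 (E18), in 1 control library and 1 Smo cKO library. The Smo cKO embryos carried hGFAP-Cre and floxed Smo (Smo F/F), in which Cre driven by the human GFAP promoter removes Smo, the membrane protein that passes on Sonic hedgehog signals, from cortical radial glia. The controls are named wild type in the sample labels and Smo F/F littermates without Cre in the study's methods. A fluorescent dye was injected into the lateral ventricle a day earlier and labels cells at the ventricular surface, and cells were sorted before profiling, so the mouse cells are not a random draw of the cortex. The number of embryos pooled per mouse library is not stated. The ferret cells came from the E39 cortex of 1 embryo, in 2 sets of barcodes that the files do not tie to the 2 labelled samples. The study's methods describe no dye and no sorting for the ferret cells.

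The control and Smo cKO libraries held 10524 and 7596 cells with medians of 4040 and 4686.5 UMIs per cell, and the ferret sets held 10190 and 13292 cells with medians of 2555 and 3514. The mouse barcode suffixes were assigned to genotypes by the cell numbers that the study states, and these match the files. Of these cells, 10498, 7209, 10185 and 13052 passed a filter on genes and mitochondrial counts. The mouse libraries shared 28 cell barcodes and the ferret sets 38. Cells were placed into classes from UMIs of lineage markers, none of which is among the 40 genes. In control and Smo cKO these classes held 2281 and 1633 radial glia (RG), 4588 and 2669 intermediate progenitor cells (IPCs), 708 and 176 glial progenitors, 224 and 285 inhibitory lineage cells and 1338 and 1482 neurons. The ferret sets held 447 and 609 RG, 541 and 1056 IPCs, 107 and 183 glial progenitors and 6959 and 8586 neurons. The 8 RG markers together reached 5422 and 5805 CPM (UMIs of a gene per 1000000 UMIs of the class) in control and Smo cKO RG against 267 and 255 CPM in neurons. In ferret RG they reached 2672 and 2996 CPM, and the neuron markers stood at 810 and 896 CPM there against 186 and 149 CPM in mouse RG. In ferret IPCs the neuron markers, at 1526 and 1505 CPM, stood above the IPC markers, at 1202 and 1272 CPM. In ferret glial progenitors they stood at 1619 and 1133 CPM, against 1263 and 1530 CPM for the glial progenitor markers. Ferret neurons had them at 4642 and 4409 CPM. The ferret IPC and glial classes are thus less clearly set apart from neurons than the mouse classes. Smo itself was found at 15.1 CPM in control RG (182 UMIs) and at 0.161 CPM in Smo cKO RG (2 UMIs). In IPCs it was found at 6.35 and 0.458 CPM, and in glial progenitors it had 45 UMIs in control while no UMI was seen among 176 cells in Smo cKO, where 3 counts would have been 1.70% of them.

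With 1 library per genotype there is no test between genotypes. Intervals are 95% intervals that cover counting error only, exact for levels, ratios and shares and by Newcombe's method for differences of shares, and a gene is counted as past the threshold when its ratio of CPM, with 1 CPM added to each side, exceeds 1.5-fold. In the summed counts of a class, fewer cells in S phase and less of these RNAs per S phase cell cannot be told apart. Counts per cell are given further on, and these also depend on the RNA level per cell.

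Before a cell copies its DNA, the Mcm2 to Mcm7 hexamer is loaded onto replication origins in G1 with the help of Cdc6, and geminin (Gmnn) keeps origins from being loaded again in S phase. Cdc45 and the GINS complex turn the hexamer into the working helicase, polymerases held by the Pcna clamp copy the strands, ribonucleotide reductase and thymidylate synthase supply the nucleotides, and histone chaperones rebuild chromatin behind the fork. Most of these genes are switched on by E2F factors at the G1/S boundary. In the embryonic cortex, RG, IPCs and glial progenitors divide, whereas neurons have left the cycle.

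The 6 subunits of the Mcm hexamer each carry a Walker A motif, the loop that holds ATP and powers DNA unwinding, and this coding stretch is shown because the hexamer is the core of the list. The stretches are 60 bases long in the sense strand of GRCm38 (GENCODE M21), and capitals mark the 24 bases that encode the motif.
Mcm2: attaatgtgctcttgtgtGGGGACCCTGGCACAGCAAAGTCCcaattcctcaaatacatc
Mcm3: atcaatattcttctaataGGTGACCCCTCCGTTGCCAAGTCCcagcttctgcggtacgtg
Mcm4: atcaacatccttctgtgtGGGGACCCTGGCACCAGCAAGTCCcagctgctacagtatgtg
Mcm5: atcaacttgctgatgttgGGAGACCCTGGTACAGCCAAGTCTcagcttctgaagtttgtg
Mcm6: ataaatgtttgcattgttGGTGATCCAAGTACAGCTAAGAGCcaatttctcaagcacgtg
Mcm7: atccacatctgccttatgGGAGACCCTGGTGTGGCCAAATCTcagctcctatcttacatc

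The stretches lie in coding exons at chr6:88887885-88887944 on the minus strand in exon 10 of Mcm2, chr1:20812655-20812979 on the minus strand across exons 7 and 8 of Mcm3, chr16:15629533-15629592 on the minus strand in exon 11 of Mcm4, chr8:75119288-75119347 on the plus strand in exon 9 of Mcm5, chr1:128344432-128345924 on the minus strand across exons 8 and 9 of Mcm6, and chr5:138167570-138167629 on the minus strand in exon 10 of Mcm7. Over the 15 pairs of subunits, 30 to 44 of the 60 bases and 12 to 20 of the 24 motif bases were identical. The 6 subunits are thus separate genes with related but unequal sequences. The 40 genes lie on 17 chromosomes. Exons of Mcm7 overlap the microRNA genes Mir25 and Mir93 on the same strand, and Pcna, Tyms and Nasp have named pseudogenes with which reads could be shared, so values of these 4 genes are less certain.

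The comparison of progenitors with neurons asks how far the 40 genes mark dividing cells. In control mouse cortex, 38 of the 40 genes were higher in RG than in neurons past 1.5-fold, where 30.1% of all genes tested were. In IPCs 35 of 40 were higher (background 18.4%), and in glial progenitors 40 of 40 were higher (background 25.4%). The median log2 ratio to neurons over the 40 genes was 2.13 in RG, 1.57 in IPCs and 2.77 in glial progenitors. In Smo cKO the numbers were 37 of 40 in RG (background 29.6%), 28 of 40 in IPCs (background 17.5%) and 40 of 40 in glial progenitors (background 22.8%), with median log2 ratios of 2.08, 0.82 and 2.66. IPCs therefore showed the smallest distance from neurons in both libraries, and the distance was smaller in Smo cKO.

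The widest distances between RG and neurons lay in origin control, the helicase and chromatin genes. Gmnn, the inhibitor of relicensing, stood at 115 CPM in control RG against 6.46 CPM in neurons, a ratio of 17.8 (12.5 to 26.4). Uhrf1, which guides maintenance of DNA methylation at the fork, stood at 46.2 against 3.12 CPM, a ratio of 14.8 (8.88 to 26.6). Mcm3 stood at 52.6 against 3.96 CPM, a ratio of 13.3 (8.44 to 22.2). Cyclin E2 (Ccne2), the S phase entry cyclin, followed at 34.5 against 2.71 CPM. The intervals of these genes in neurons lay far below those in RG. By contrast Mcm7 was found at 123 CPM in control RG and 95.2 CPM in neurons, a ratio of 1.29 (1.16 to 1.43). Nasp, a chaperone of histone H3 and H4, was found at 246 and 196 CPM, a ratio of 1.26 (1.17 to 1.36). Both lay within 1.5-fold although their intervals lay above 1. In IPCs 5 genes lay within 1.5-fold of neurons, which were Mcm7, Nasp, the clamp loader subunit Rfc2, the polymerase delta subunit Pold3 and the deubiquitinase Usp1.

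Among the progenitors of the control library, the 40 genes were highest in glial progenitors. There, 29 of the 40 were higher than in RG past 1.5-fold (background 8.14%), with a median log2 ratio of 0.73 and a ratio of the summed CPM of 1.65 (1.62 to 1.68). In Smo cKO 35 of 40 were higher (background 11.8%), with a summed ratio of 1.80. Rrm2, the S phase subunit of ribonucleotide reductase, stood at 195 CPM in control glial progenitors and 72.0 CPM in RG, a ratio of 2.71 (2.47 to 2.97). Cdc6 stood at 21.8 and 7.64 CPM, a ratio of 2.85 (2.15 to 3.79), and the exonuclease Exo1 at 17.7 and 6.31 CPM, a ratio of 2.80 (2.05 to 3.84). Gins2 was found at 56.8 CPM in glial progenitors and 60.6 CPM in RG, and its interval included 1 (0.816 to 1.07). The genes did not all follow the class in equal measure.

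In ferret cortex, with both barcode sets together, 38 of 38 genes were higher in RG than in neurons (background 27%), 37 of 38 in IPCs (background 18%) and 38 of 38 in glial progenitors (background 24.9%). The median log2 ratios were 2.97, 2.47 and 2.92. The widest in RG were GINS2 at 52.6 against 1.61 CPM, a ratio of 32.7 (25.7 to 41.9), and the transcription factor E2F1 at 62.8 against 2.30 CPM, a ratio of 27.3 (22.2 to 33.8). MCM3 stood at 41.7 against 1.41 CPM. The exception in ferret IPCs was RFC2, at 70.1 CPM against 47.9 CPM in neurons, a ratio of 1.46 (1.33 to 1.61). GMNN stood at 100 CPM in ferret RG and 21.1 CPM in ferret neurons, a ratio of 4.73 (4.23 to 5.29), below the mouse ratio, and the intervals of the 2 species did not overlap. Species, embryonic age and cell sorting differ together between the mouse and ferret cells and cannot be told apart in any of these comparisons.

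Across the 38 genes found in both tables, the log2 ratios to neurons in control mouse and ferret had a Pearson r of 0.60 in RG, 0.66 in IPCs and 0.64 in glial progenitors, and a Spearman rho of 0.61, 0.68 and 0.62. These are descriptions across genes, which are not independent replicates, and the points of a species share the same neurons as denominator. All 38 lay above neurons in both species in each of these classes.

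**Figure D1:**
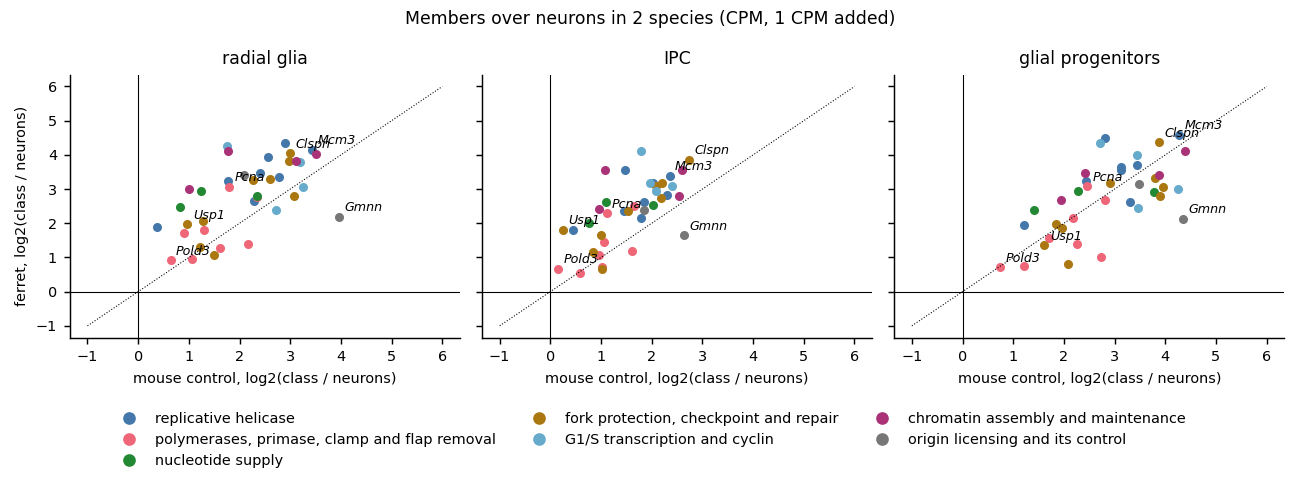
Each point is 1 of 38 genes, with the log2 ratio of CPM to neurons (1 CPM added) in control mouse on the x axis and in ferret, both barcode sets together, on the y axis, for RG, IPCs and glial progenitors. All points lie above 0 on both axes, and Gmnn has a log2 ratio of 3.96 in mouse RG and 2.19 in ferret RG.

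The 2 ferret barcode sets stood apart from each other. The genes were higher in set 2 than in set 1 past 1.5-fold for 14 of 38 genes in RG (background 18.8%), 9 of 38 in IPCs (background 15.7%) and 22 of 38 in glial progenitors (background 24.2%). The ratio of summed CPM was 1.39, 1.25 and 1.65, and 1.03 in neurons. PCNA was found at 200 CPM in RG of set 1 and 319 CPM in RG of set 2, and at 34.6 and 30.8 CPM in neurons. GMNN was found at 113 and 92.9 CPM in RG, the other way round. The genes were thus not shifted alike, and what set the barcode sets apart is not given in the labels.

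The genotype comparison asks whether replication genes differ without Smo in each class. In IPCs, 31 of the 40 genes were lower in Smo cKO past 1.5-fold, where 3.68% of the 12830 genes tested were, and none was higher (background 4.27%). All 40 had a ratio below 1, the median log2 ratio was -0.80 and the ratio of the summed CPM was 0.629 (0.617 to 0.640), against a median log2 ratio of 0.05 over all genes tested. In RG, 1 of the 40 genes, Gmnn, was lower past 1.5-fold (background 4.63%), and none was higher (background 5.85%). All 40 ratios were again below 1, or 39 of 40 with scaling by the median of ratios, with a median log2 ratio of -0.28 and a summed ratio of 0.826 (0.812 to 0.841). In glial progenitors 2 of 40 were lower, Dtl and Blm (background 9%), and none was higher (background 6.06%). There 29 ratios were below 1, the median log2 ratio was -0.14 and the summed ratio 0.902 (0.878 to 0.927). Over all genes with 50 or more UMIs, the median ratio without added CPM was 0.993 in RG and 0.971 in glial progenitors.

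The RG and glial counts changed when every cell was brought to 2000 UMIs, which also left out 80 Smo cKO and 0 control RG. Why the counts changed was not tested. Smo cKO cells were deeper, with median UMIs of 7163 against 4771 in RG, 10796 against 6708 in glial progenitors and 4943 against 4109 in IPCs. With every cell thinned to 2000 UMIs, 10 of 40 genes were lower in RG (background 7.39%), with a median log2 ratio of -0.35, and over 20 draws the number ranged from 4 to 11. In glial progenitors it was 12 of 40 (background 14.8%), with a range of 4 to 12 and a mean of 6.95. In IPCs it was 28 of 40 (background 4.56%), with a range of 23 to 31.

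**Figure D2:**
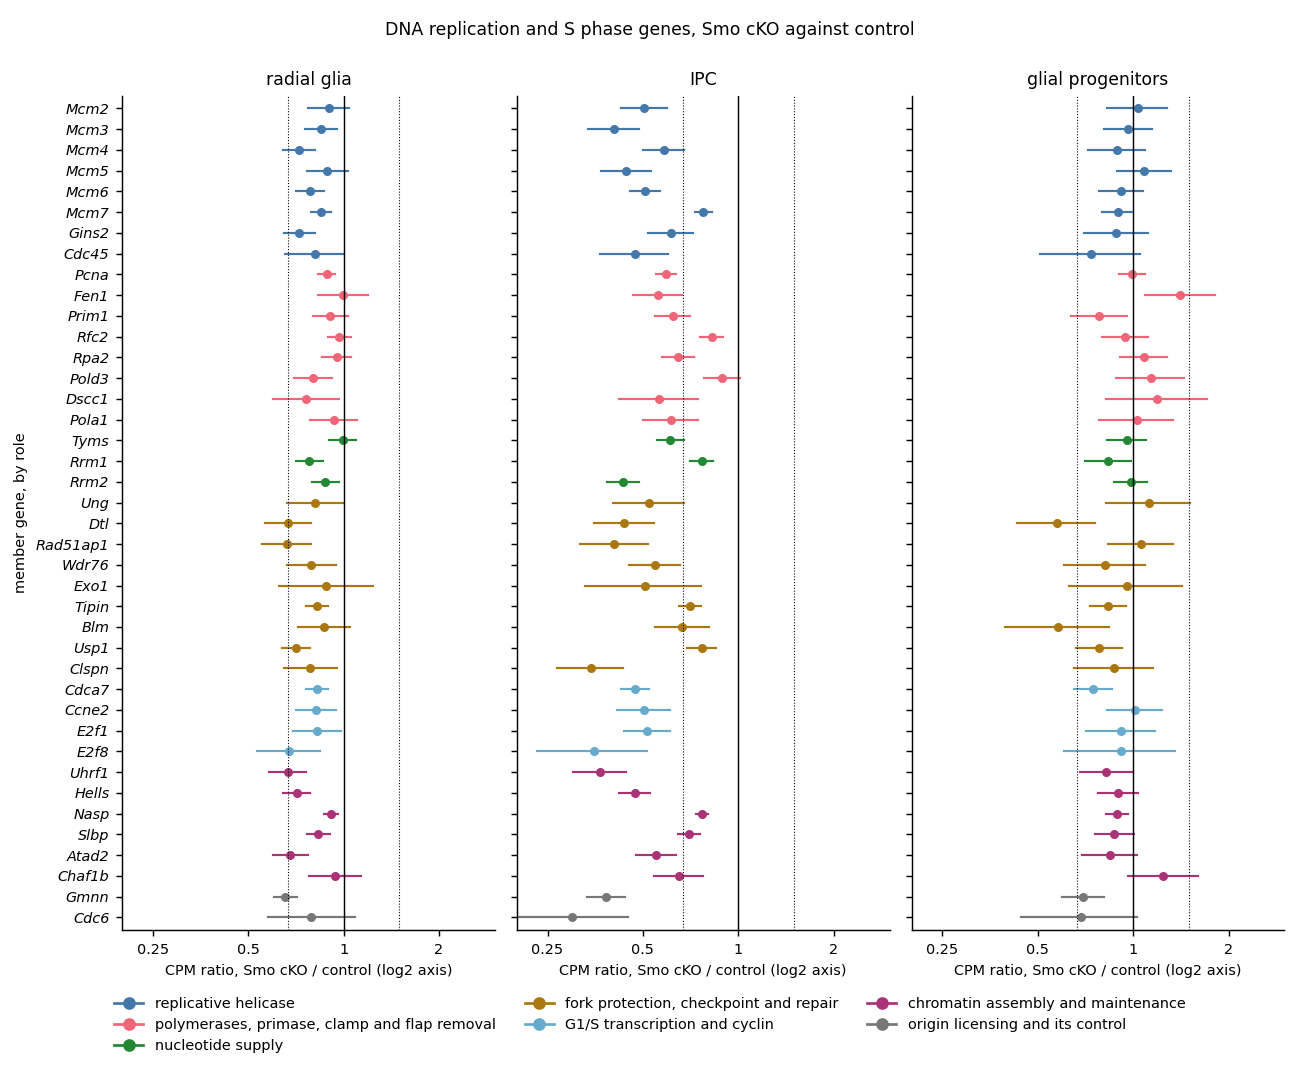
Ratio of CPM in Smo cKO over control, without added CPM and on a log2 axis, for each of the 40 genes in RG, IPCs and glial progenitors. Genes are ordered by role and shown with counting intervals. In IPCs all points lie below 1 and most lie past 1.5-fold. In RG all lie below 1 with Gmnn farthest, and in glial progenitors they lie on both sides of 1. Dotted lines mark 1.5-fold without the added CPM, so Uhrf1 and Rad51ap1 also lie past it in RG.

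The 2 genes of origin licensing and its control were lower in IPCs of Smo cKO by the widest margin of any role, with a summed ratio of 0.373. Gmnn stood at 17.4 CPM in Smo cKO IPCs and 45.3 CPM in control IPCs, a ratio of 0.383 (0.333 to 0.439). Cdc6, which loads the Mcm hexamer, stood at 1.90 and 6.35 CPM, a ratio of 0.299 (0.193 to 0.448). In RG, Gmnn stood at 75.5 CPM (70.7 to 80.5) and 115 CPM (109 to 121), a ratio of 0.655 (0.603 to 0.713). In glial progenitors it stood at 105 and 151 CPM, a ratio of 0.697. Gmnn was lower in Smo cKO in each progenitor class, and its CPM intervals there did not overlap. Cdc6 in RG, at 6.05 and 7.64 CPM, had a ratio of 0.792 whose interval included 1 (0.576 to 1.09). In cells rather than molecules, a Gmnn UMI was found in 23.6% of Smo cKO and 30.6% of control RG, in 5.06% and 11.5% of IPCs and in 46.0% and 53.5% of glial progenitors, against a background of 1.21% and 1.27% of neurons. The median UMIs of those neurons were 3983.5 and 3187.5.

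Of the 8 helicase genes, 7 were lower in IPCs past 1.5-fold, with a summed ratio of 0.615. Mcm2 stood at 12.9 CPM in Smo cKO IPCs and 25.6 CPM in control, a ratio of 0.505 (0.427 to 0.594). Mcm3 stood at 9.82 and 24.3 CPM, a ratio of 0.404 (0.335 to 0.484). Mcm4 stood at 16.7 and 28.7 CPM, a ratio of 0.582 (0.501 to 0.674). These subunits were all lower without overlap of the counting intervals. Mcm5 stood at 10.1 and 22.7 CPM, a ratio of 0.443 (0.368 to 0.532), and Mcm6 at 29.3 and 57.6 CPM, a ratio of 0.508 (0.456 to 0.567). Mcm7 stood at 101 and 131 CPM, a ratio of 0.775 (0.728 to 0.824), above the intervals of the other 5 subunits. Cdc45 stood at 5.83 and 12.4 CPM, and Gins2 at 13.5 and 22.1 CPM, a ratio of 0.611 (0.517 to 0.720).

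In RG none of the 6 Mcm subunits was lower past 1.5-fold. Mcm4 stood at 40.4 CPM in Smo cKO RG and 55.8 CPM in control, a ratio of 0.724 (0.644 to 0.814), and Mcm6 at 56.6 and 72.1 CPM, a ratio of 0.785 (0.710 to 0.869). Mcm7 stood at 104 and 123 CPM, a ratio of 0.849 (0.787 to 0.915), and Mcm3 at 44.6 and 52.6 CPM. Mcm2, at 27.5 and 30.6 CPM, had a ratio of 0.897 (0.772 to 1.04), and Mcm5, at 28.7 and 32.3 CPM, a ratio of 0.889 (0.768 to 1.03). The last pair had intervals that included 1. In glial progenitors the intervals of all 6 Mcm ratios included 1. Cdc45 stood at 20.4 and 27.6 CPM there, a ratio of 0.738 (0.509 to 1.05). Mcm2 was found at 59.2 and 57.3 CPM there, and Mcm5 at 72.6 and 66.9 CPM, a ratio of 1.09 (0.889 to 1.32).

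Among the polymerase, primase, clamp and flap removal genes, 6 of 8 were lower in IPCs past 1.5-fold. Pcna, the sliding clamp, stood at 67.8 CPM in Smo cKO IPCs and 115 CPM in control, a ratio of 0.590 (0.548 to 0.634). Fen1, which trims flaps of Okazaki fragments, stood at 11.4 and 20.4 CPM, a ratio of 0.558 (0.466 to 0.666). Pold3 stood at 24.8 and 27.9 CPM, with a ratio of 0.889 (0.780 to 1.01). Pold3 was the only one of the 40 genes whose IPC interval included 1, and it was also within 1.5-fold of neurons in control IPCs (27.9 and 25.0 CPM). In RG, Dscc1, a subunit of an alternative clamp loader, stood at 10.3 and 13.5 CPM, a ratio of 0.763 (0.60 to 0.967), Pcna at 163 and 185 CPM, a ratio of 0.883 (0.831 to 0.938), and Fen1 at 19.6 and 19.7 CPM, a ratio of 0.996 (0.829 to 1.2). In glial progenitors Pcna stood at 290 and 293 CPM. Fen1 was higher there in Smo cKO, at 49.2 and 35.0 CPM, a ratio of 1.41 (1.09 to 1.81) that stayed within 1.5-fold.

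Of the 3 nucleotide supply genes, 2 were lower in IPCs past 1.5-fold. Rrm2 stood at 24.9 CPM in Smo cKO IPCs and 57.5 CPM in control, a ratio of 0.433 (0.385 to 0.486). Tyms, thymidylate synthase, stood at 37.7 and 61.9 CPM, a ratio of 0.609. Rrm1, the large subunit of ribonucleotide reductase, stood at 56.3 and 73.5 CPM, a ratio of 0.766 (0.705 to 0.832). The intervals of the 2 reductase subunits did not overlap, and the ratio of Rrm1 was the nearer to 1 in IPCs. In RG the order was the other way round, with Rrm1 at 59.8 and 76.7 CPM, a ratio of 0.779 (0.706 to 0.859), and Rrm2 at 62.9 and 72.0 CPM, a ratio of 0.874 (0.792 to 0.963), although these intervals overlapped. Tyms stood at 68.6 and 69.2 CPM in RG, a ratio of 0.992 (0.901 to 1.09). In glial progenitors Rrm2 was found at 192 and 195 CPM.

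In the chromatin role, 4 of 6 genes were lower in IPCs past 1.5-fold. Uhrf1 stood at 8.84 CPM in Smo cKO IPCs and 24.1 CPM in control, a ratio of 0.367 (0.301 to 0.443). Hells, a chromatin remodeller, stood at 25.5 and 54.1 CPM, a ratio of 0.471 (0.419 to 0.528). Nasp stood at 195 and 253 CPM, a ratio of 0.769. The intervals of Uhrf1 and Hells lay below the ratio of Nasp, a gene that was within 1.5-fold of neurons in both RG and IPCs. In RG, Uhrf1 stood at 30.7 and 46.2 CPM, a ratio of 0.665 (0.583 to 0.759), and Atad2, a bromodomain ATPase, at 34.0 and 50.2 CPM, a ratio of 0.678, whereas Chaf1b of the chromatin assembly factor stood at 17.8 and 19.0 CPM, a ratio of 0.937 (0.775 to 1.13).

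In the fork protection, checkpoint and repair role, 6 of 9 genes were lower in IPCs past 1.5-fold. Clspn (claspin), which relays the replication checkpoint, stood at 5.70 CPM in Smo cKO IPCs and 16.7 CPM in control, a ratio of 0.342 (0.268 to 0.433). Rad51ap1 stood at 5.70 and 14 CPM, a ratio of 0.406. Usp1 stood at 35.2 and 46.0 CPM, a ratio of 0.766. With 1 CPM added, claspin had the lowest log2 ratio of the 40 genes in IPCs, -1.40. Without the added CPM, the ratio of Cdc6 given above was lower than that of claspin. In RG, Rad51ap1 stood at 17.6 and 26.6 CPM, a ratio of 0.662 (0.554 to 0.788), and Dtl, an adaptor of the ubiquitin ligase that removes licensing factors, at 20.0 and 30.0 CPM, a ratio of 0.667. Exo1 stood at 5.57 and 6.31 CPM in RG, with an interval that included 1 (0.627 to 1.24). Dtl and Blm, a helicase of recombination repair, were the 2 genes lower past 1.5-fold in glial progenitors. Dtl stood at 30.8 and 53.8 CPM there, a ratio of 0.574 (0.429 to 0.757). Blm stood at 17.9 and 30.8 CPM, a ratio of 0.581 (0.393 to 0.837), and with cells thinned to 2000 UMIs its log2 ratio was 0.07, so its direction did not hold.

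All 4 genes of the G1/S role were lower in IPCs past 1.5-fold, with a summed ratio of 0.480. E2f8, a repressor among the E2F factors, stood at 2.16 CPM in Smo cKO IPCs and 6.17 CPM in control, a ratio of 0.350 (0.232 to 0.515). Cdca7, a target of E2F and Myc, stood at 32.6 and 68.9 CPM, a ratio of 0.473 (0.427 to 0.524). E2f1, the activator, stood at 12.8 and 24.8 CPM, a ratio of 0.515 (0.436 to 0.608). All of these IPC ratios lay well below 1, with intervals that overlapped each other. In RG, E2f8 stood at 10.6 and 15.9 CPM, a ratio of 0.671, Ccne2 at 28.2 and 34.5 CPM, a ratio of 0.819 (0.708 to 0.946), and E2f1 at 19.8 and 24 CPM, a ratio of 0.823 (0.692 to 0.979). The 3 RG ratios were within 1.5-fold and each lay closer to 1 than the ratio of the same gene in IPCs. In glial progenitors Cdca7 stood at 134 and 179 CPM, a ratio of 0.750 (0.652 to 0.859).

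The IPC class itself differed in its other markers. The 8 neuron markers summed to 1022 CPM in control IPCs and 1217 CPM in Smo cKO IPCs, with a median of 2 and 3 detected per cell, while the 8 IPC markers summed to 1780 and 2025 CPM. Among IPCs with fewer than 2 neuron markers, 34 of the 40 genes were lower past 1.5-fold and all 40 had a ratio below 1. The background over all genes was not computed for this smaller subset. The part of the marker differences in the IPC result was not tested. In inhibitory lineage cells 27 of 39 genes were lower past 1.5-fold (background 10.7%), with a summed ratio of 0.639. That class also differed in its markers, with RG markers at 1066 CPM in control and 590 CPM in Smo cKO, IPC markers at 666 and 304 CPM, glial progenitor markers at 355 and 168 CPM, and inhibitory markers at 870 and 1491 CPM. Their part in the lower replication genes was not tested. In neurons 5 of 35 were lower, Mcm3, Mcm5, Rrm2, Dtl and Gmnn (background 3.38%), with a summed ratio of 0.90. At 2000 UMIs per cell 1 gene was lower in neurons (background 3.71%). The log2 ratio of Gmnn there was 0.00917, or 0.0917 with 1 more marker required per class, so its direction did not hold.

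The genes of the wider replication list and of mitosis were read beside the 40. Of 40 other replication genes (remaining origin, polymerase, clamp loader and repair factors), 18 were lower in IPCs past 1.5-fold (background 3.68%) and 3 in RG (background 4.63%), with median log2 ratios of -0.41 and -0.18. The 3 largest in IPCs were Mcm10, a helicase cofactor (-1.34), thymidine kinase Tk1 (-1.27) and the licensing factor Cdt1 (-1.24), and those in RG were the kinase subunit Dbf4 (-0.73), Orc1 (-0.69) and Wdhd1 (-0.69). Of 20 genes of G2 and mitosis, 20 were lower in IPCs (background 3.68%), 12 in RG (background 4.63%) and 5 in glial progenitors (background 9%), with median log2 ratios of -1.18, -0.63 and -0.45. The 3 largest in RG were Hmmr (-0.85), Tpx2 (-0.82) and cyclin B2, Ccnb2 (-0.81). In all of these classes the summed ratio of the mitotic genes (0.431 in IPCs, 0.667 in RG and 0.734 in glial progenitors) lay below that of the 40 replication genes.

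To count cells rather than sum RNA over a class, each cell was thinned to 2000 UMIs and counted as an S phase cell when 6 or more of the 40 genes had a UMI. Detection also depends on the level of these RNAs per cell. Fewer S phase cells and less of these RNAs per cell are thus not told apart by this score. This score is a range and not a type, and in RG 212 control and 106 Smo cKO cells lay at 5 or 6 genes. In control, 23.2% of RG (21.5 to 25.0), 11% of IPCs (10.1 to 11.9) and 53.0% of glial progenitors (49.2 to 56.7) were S phase cells, against a background of 0.972% of neurons (0.518 to 1.66). In Smo cKO the shares were 16.4% of RG (14.5 to 18.3), 2.87% of IPCs (2.27 to 3.58), 39.0% of glial progenitors (31.6 to 46.7) and 0.342% of neurons (0.111 to 0.797). At the cells' own depths the control and Smo cKO values came to 48.3% and 46.3% of RG, 25.3% and 17.2% of IPCs, 85.0% and 77.3% of glial progenitors and 4.33% and 5.80% of neurons. In inhibitory lineage cells the thinned shares were 22.3% (17.0 to 28.3) in control and 7.82% (4.77 to 11.9) in Smo cKO. The thinned Smo cKO shares were lower in each of these classes, and in RG, IPCs and inhibitory lineage cells the intervals did not overlap.

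The share in Smo cKO minus that in control was -8.14 percentage points in IPCs (-9.24 to -7.01), with a range of -8.57 to -7.71 over 20 draws of the thinning. It was -6.88 points in RG (-9.38 to -4.32), with a range of -8.00 to -6.60. In glial progenitors it was -14.0 points (-21.9 to -5.70), but this draw was the lowest of the 20, whose mean was -8.58 and highest -3.65, and the interval excluded 0 in 11 of 20. In inhibitory lineage cells it was -14.5 points (-21.0 to -8.09), and the interval excluded 0 in 20 of 20 draws. In that class Smo cKO cells were shallower (median 3188 against 4722.5 UMIs), and 42 Smo cKO and 0 control cells were left out as under 2000 UMIs. Smo had 8 UMIs there in control and 2 in Smo cKO, with overlapping CPM intervals (2.80 to 12.8 and 0.216 to 6.45). In neurons the difference in share was -0.63 points, and the interval excluded 0 in 16 of 20. The glial difference was therefore poorly fixed at 172 Smo cKO cells, while those in RG and IPCs excluded 0 in each of the 20 draws. The draws thin the same cells of 1 library per genotype again, so they do not measure variation between embryos or libraries. Without thinning, the RG difference was -2.02 points and its interval included 0 (-5.18 to 1.16).

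**Figure D3:**
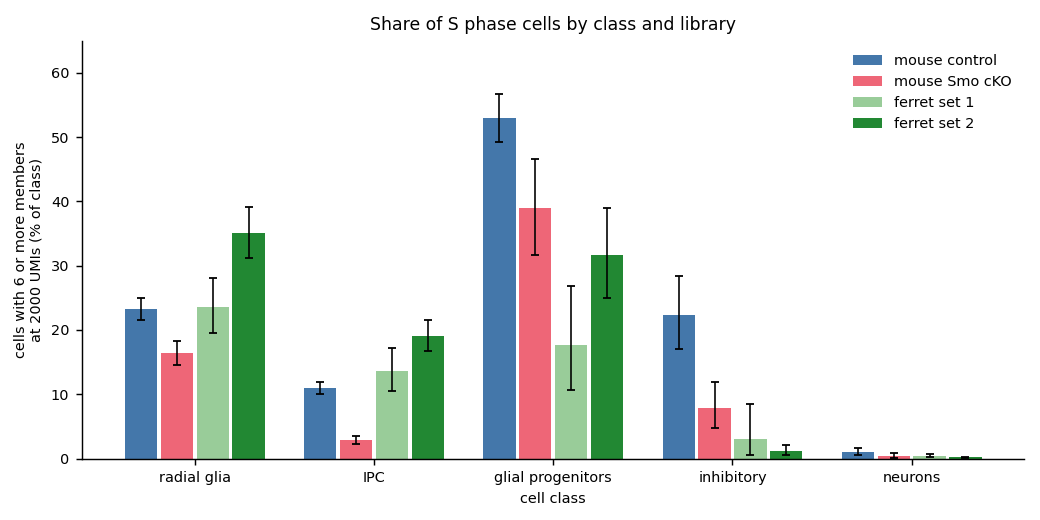
Share of cells with 6 or more of the 40 genes (38 in ferret) at 2000 UMIs, in percent of each class, with exact 95% intervals, in mouse control, mouse Smo cKO and the 2 ferret barcode sets. Control lies above Smo cKO in each mouse class, 11% against 2.87% in IPCs, and neurons lie under 1% in every library.

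In ferret, 23.6% of RG in set 1 and 35.1% in set 2 were S phase cells by the same rule over 38 genes, 13.6% and 19.1% of IPCs, and 17.7% and 31.7% of glial progenitors, against 0.427% and 0.18% of neurons. Set 2 had the larger share in each of these progenitor classes. In neither set did the share in glial progenitors exceed that in RG, whereas in both mouse libraries it did. In ferret the intervals of glial progenitors (10.7 to 26.8 and 24.9 to 39.0) overlapped those of RG (19.5 to 28.1 and 31.2 to 39.1), so their order is not fixed. The ferret glial class also carried more neuron markers, as given above.

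**Figure D4:**
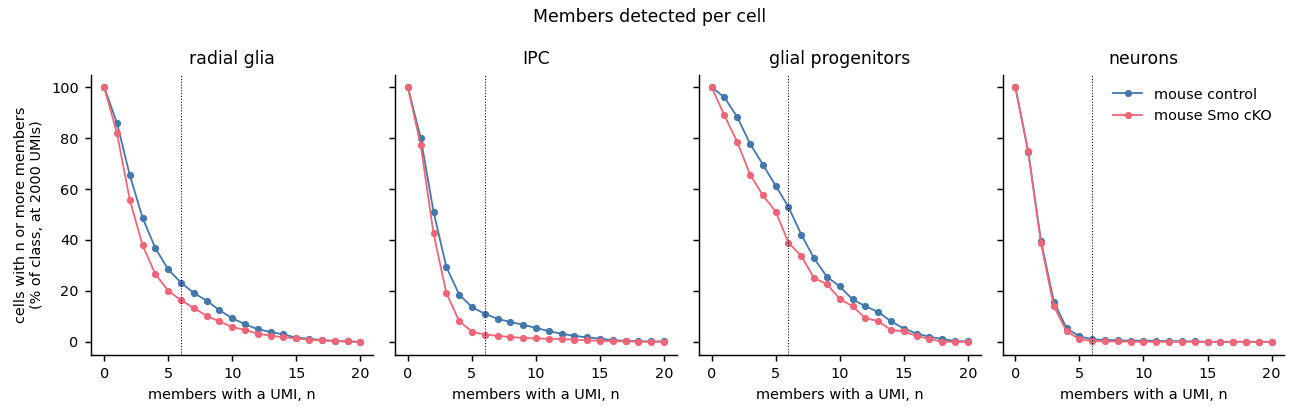
Percent of cells (y axis) with at least n of the 40 genes detected at 2000 UMIs (x axis), in mouse control and Smo cKO, for RG, IPCs, glial progenitors and neurons, with the threshold of 6 as a dotted line. The Smo cKO curve lies below control in the 3 progenitor classes around the threshold, and the neuron curves lie close together, at 0.972% in control and 0.342% in Smo cKO at the threshold.

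Cells were also sorted by S and mitotic genes together, with a mitotic call at 3 or more of the 20 genes of G2 and mitosis. In IPCs, S phase genes alone were called in 5.25% of control and 1.28% of Smo cKO cells, both sets in 5.75% and 1.59%, mitotic genes alone in 5.54% and 2.30%, and neither in 83.5% and 94.8%. In RG the same order gave 10.9% and 8.44%, 12.4% and 7.92%, 23.0% and 16.2%, and 53.8% and 67.5%. In glial progenitors S phase genes alone were called in 22.3% and 21.5%, both sets in 30.6% and 17.4%, and neither in 21.8% and 38.4%. Cells with neither set called made up a larger share of Smo cKO than of control in each of these classes, and in RG and IPCs each of the 3 called groups took the smaller.

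**Figure D5:**
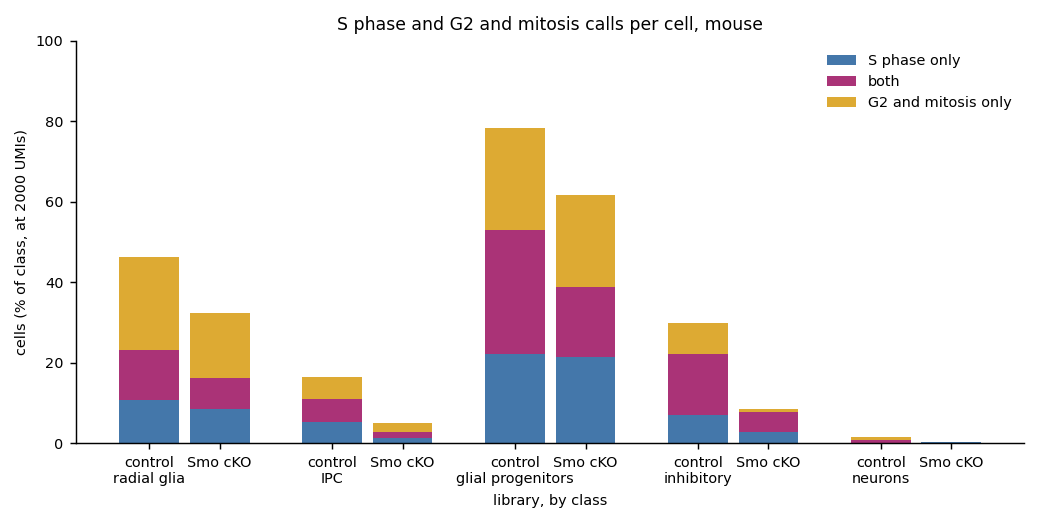
Percent of each mouse class called for S phase genes alone, both sets or mitotic genes alone, as stacked bars, in control and Smo cKO. The rest of each class, not drawn, had neither set called. This rest was 83.5% of control and 94.8% of Smo cKO IPCs, and 53.8% and 67.5% of RG.

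To compare levels within S phase cells without using the same genes for the choice and the reading, the 40 genes were divided into lists A and B of 20, cells were called at 3 or more genes of a list, and the UMIs of the other list were counted in them at 2000 UMIs per cell. In RG called by list A, list B gave 3.91 UMIs per cell in Smo cKO and 4.01 in control, a ratio of 0.974 (0.911 to 1.04). In RG called by list B, list A gave 5.32 and 5.77 UMIs, a ratio of 0.922 (0.866 to 0.982), which was the lowest of the 20 draws (mean 0.978, highest 1.03). Without thinning, where UMIs per cell are not corrected for depth and Smo cKO RG were deeper, these RG ratios were 1.16 and 1.26. At 2000 UMIs the share of RG called differed by more than the level. It was 21.5% against 29.5% by list A and 17.2% against 24.4% by list B. This order did not hold without thinning. There list A called 950 of 1633 Smo cKO RG and 1295 of 2281 control RG, and list B called 737 and 1104. In neurons at 2000 UMIs, as background, 2.95% and 5.01% were called by list A and 1.58% and 1.72% by list B.

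In IPCs called by list A, list B gave 3.24 UMIs per cell in Smo cKO and 4.45 in control, a ratio of 0.729 (0.663 to 0.80). Called by list B, list A gave 4.65 and 5.82 UMIs, a ratio of 0.798 (0.727 to 0.874). The shares called were 6.08% against 15.0% and 4.38% against 12.7%, above the 2.95% and 1.58% of Smo cKO neurons. Over the 20 draws these ratios ranged from 0.560 to 0.762 and from 0.704 to 0.901. With 5 or more genes of a list required, the ratios were 1.13 (0.996 to 1.27) and 1.07 (0.95 to 1.2). The value of 1.13 was the highest of the 20 draws, whose mean was 0.987, with 10 of 20 below 1, and for the other list the mean was 1.04, with 8 of 20 below 1. At that threshold the draws fell on both sides of 1. In glial progenitors the ratios at 3 or more genes were 0.918 (0.818 to 1.03) and 0.897 (0.804 to 0.998), but 0.897 was the lowest of the 20 draws. The means over the draws were 0.991 and 0.989, the highest values were 1.15 and 1.08, and without thinning the ratios were 1.47 and 1.53.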

How the data were processed

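Per the labels and the study's methods, the authors sequenced droplet libraries and made UMI counts per gene and cell with Cell Ranger. Its version and annotation are not given in the sources used here, and the submitters' processing notes also list StringTie, Seurat 3 and the mm10 build. The deposited tables hold raw counts, with 0 columns of other samples. The mouse suffixes were tied to genotypes by the cell numbers the study states. The ferret sets could not be tied to samples. The 40 genes, the lists and the tests were chosen with earlier results of these data known.

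Cells with 750 to 5000 genes and under 10% mitochondrial counts were kept, which removed 354 Smo cKO cells with too few genes and 33 with too many. No doublet caller was run, and leaving out the 5% of cells with most UMIs was an alternative. Classes were set per cell in a fixed order, by at least 2 nonneural, 2 inhibitory or 2 glial progenitor markers (with Egfr or Olig2), by Eomes and 1 more IPC marker, and by at least 3 RG or 3 neuron markers. Deeper cells meet these rules more easily. Counts were summed per class and library, and genes with 20 or more UMIs in both libraries together were compared as CPM with 1 CPM added, with exact Poisson, conditional binomial, Clopper-Pearson and Newcombe 95% intervals. Cells under 2000 UMIs (283 kept cells in Smo cKO, 0 in control, 2795 and 1536 in the ferret sets) were left out of the per-cell shares. Named genes are, per role and comparison, a selection from the 2 with the largest and the 1 with the smallest log2 ratio, plus Mcm2 to Mcm7, and the 3 largest of the other lists. Cdc45, Gins2 and Pcna outside that rule, and the genes named in ferret sets, were added after their values were seen. Python 3.11.15, NumPy 2.4.6, SciPy 1.17.1 and Biopython 1.88 were used, and the scripts were tested on simulated data. Of 17170 mouse symbols, 16568 matched GENCODE M21.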

Additional observations from a re-analysis of the deposited data

How the results depend on the processing

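No paired analysis was possible because each genotype is 1 library. Of the 40 genes, the number lower in Smo cKO in RG, 1 as reported, was 3 with 0.1 CPM added, 0 with 10 CPM added, at a fold of 2 or with classes set on thinned cells, 4 with 1 more marker per class, 5 without the 5% of cells with most UMIs and 10 with every cell at 2000 UMIs. In IPCs, 31 became 16 with 10 CPM added and 12 at a fold of 2. In glial progenitors, 2 became 1 with 10 CPM added or 1 more marker, 0 at a fold of 2, 10 without the deepest cells and 12 at 2000 UMIs. In neurons, 5 became 1 with 10 CPM added or at 2000 UMIs, 8 with no minimum of UMIs, 0 at 100 or more UMIs, 2 at a fold of 2 and 3 with 1 more marker. At 2000 UMIs the background over all genes was 7.39% in RG, 14.8% in glial progenitors and 3.71% in neurons. The 12 in glial progenitors was the highest of 20 draws, whose mean was 6.95. For the other alternatives no background is given, so these counts show only how the number moved. Other replication genes became 1 in RG and 5 in IPCs with 10 CPM added, and 0 and 7 at a fold of 2, and mitotic genes in RG 7 and 0. The log2 ratio of Gmnn in neurons turned to 0.0917 with 1 more marker and 0.00917 at 2000 UMIs, and that of Blm in glial progenitors to 0.0722 at 2000 UMIs and 0.12 with classes set on thinned cells. The difference in S phase share became -11.3 points in RG and -12.0 in IPCs at 2900 UMIs. Without thinning it became -2.02 in RG and 1.47 in neurons, and both of these intervals included 0. It became -9.39 in IPCs with 1 more marker, -10.1 in RG and -10.4 in IPCs at 4 or more genes, -5.87 in IPCs at 8 or more, and -11.1 in IPCs with fewer than 2 neuron markers. The level ratios in IPCs became 0.574 and 0.650 at 2900 UMIs, 0.619 and 0.690 without thinning, and 1.13 and 1.07 at 5 or more of 20. Without thinning they became 1.16 and 1.26 in RG and 1.47 and 1.53 in glial progenitors. These unthinned ratios are UMIs per cell without correction for depth, and Smo cKO cells were deeper. The cause of these shifts was not tested. Classes on thinned cells, the neuron marker limit and the 5 of 20 threshold were added after seeing the data. Low counts limit the glial and inhibitory classes, with 176 and 285 Smo cKO cells.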
